A study of Mus musculus with 12 samples.

Results

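Expression of 60 listed genes of the Wnt pathway was followed across newborn mouse uterus and vagina. The list holds ligands, receptors, modulators and targets of the pathway, and their probes were found by the gene symbol in the array platform's annotation. Of the 45281 probes on the array, 111 carried the symbol of a listed gene, and they covered 59 of the 60 genes. Tcf7 was not analysed here. Of the 59 genes, 38 had a probe above background on at least 4 of the 12 arrays and were tested among 11273 genes, and 21 did not reach that level. Each array was hybridised with RNA pooled from 3 female mice of a mixed background (C57BL/6, S129/5 and CD-1) at postnatal day 3, and each group had 4 pools. Uterus and vagina were taken from Trp63 flox/wt ; Pax2-cre mice (cHet), and vagina alone from Trp63 flox/floxt ; Pax2-cre mice (cKO). All 3 groups therefore carried the Pax2-cre transgene and at least 1 floxed Trp63 copy, and a group without the transgene was not analysed here. Recombination is limited to cells in which Pax2-cre was active, so vaginal cells outside that lineage keep their Trp63 copies in the cKO mice as well. Trp63 encodes p63, a transcription factor of stratified epithelium.

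Wnt proteins are secreted lipid-modified ligands that bind Frizzled receptors together with the co-receptors Lrp5 and Lrp6. In the canonical branch this stops the destruction of β-catenin (Ctnnb1), which then acts with the Tcf and Lef factors on target genes such as Axin2. R-spondins, through the Lgr receptors, keep Frizzled receptors on the cell surface by opposing the ligases Znrf3 and Rnf43, and secreted inhibitors such as the Sfrp proteins, Wif1 and Notum limit the signal. In the female reproductive tract of the mouse, Wnt4 is needed to form the Müllerian duct, Wnt5a for its posterior growth and Wnt7a for the patterning of uterus and vagina.

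Levels are given as log2 intensity after background correction and normalization. A difference of 1 on this scale is a 2-fold change in that intensity. An offset of 16 was added to each corrected intensity, so differences and folds of genes near background depend on it. For such genes they do not measure the fold change of the RNA. A gene was called where its adjusted p from limma, with Benjamini-Hochberg adjustment over all 11273 genes, was under 0.05. Arrays of 1 group correlated at 0.972 to 0.991 across genes, and 39.4% to 46.3% of probes were above background per array. In every group the second principal component (14.8% of the variance) split replicates 1 and 2 from replicates 3 and 4. For some of the genes, differences within each of these sets are therefore given beside the main ones. As a check of the organs, Hoxa11, which marks the uterine region, differed by -2.53 between cHet vagina and cHet uterus (SE 0.23, adjusted p = 6.70e-07). The difference of Hoxa13, which marks the distal end of the tract, was 0.84 (SE 0.18, adjusted p = 0.00310). The probes of Pax2, the gene the cre line is named for, were above background on 0 of the 12 arrays, and those of the uterine gene Hoxa10 on at most 2. The targeted gene Trp63 differed by -0.06 between cKO and cHet vagina (SE 0.17, adjusted p = 0.979). None of the sources used here places the floxed part relative to that probe, so the value is no check of the deletion. The p-values measure only the spread between these pools. These are bulk samples, in which fewer cells of a type and less RNA per cell cannot be told apart.

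Setting cHet vagina against cHet uterus asked how the pathway differs between the organs in the control genotype. Of the 38 tested members, 12 were lower and 6 were higher in vagina, or 47.4%, where 18.4% of all 11273 genes were called, 9.06% as lower and 9.34% as higher. The groups did not overlap in 17 of the 38 (44.7%), against 21.5% of all genes. Wnt16, counted among the 6 higher and among the 17, passed the filter through the vaginal pools alone. The median difference of the tested members was -0.09 and that of all genes -0.02. The members lower in vagina included all those listed as feedback and target genes (Axin2, Nkd1, Nkd2 and Apcdd1), Rspo3, Lgr5, Notum and 4 ligands. Other genes often used as Wnt targets went both ways, as described further on. The members higher in vagina were 3 other ligands, 2 Frizzled receptors and Dkk3.

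All 4 members listed as feedback and target genes were called as lower in vagina, against 9.06% of all genes. Axin2, a scaffold of the complex that destroys β-catenin and a widely used readout of canonical signalling, stood at 7.87, 8.03, 7.60 and 7.89 in cHet uterus replicates 1 to 4. It stood at 6.55, 6.81, 6.60 and 6.68 in cHet vagina and at 6.64, 6.84, 6.11 and 6.57 in cKO vagina. Every uterus pool lay above every vaginal pool of either genotype. The difference between cHet vagina and cHet uterus was -1.19 (SE 0.16, adjusted p = 3.95e-05), or 2.28-fold; replicates 1 and 2 alone gave -1.27 and replicates 3 and 4 alone -1.10.

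Nkd1, which encodes a Dishevelled-binding antagonist that is itself a Wnt target, stood at 8.27, 8.09, 7.30 and 7.28 in cHet uterus and at 7.20, 6.80, 5.88 and 6.12 in cHet vagina. In both organs replicates 1 and 2 were higher than replicates 3 and 4. The groups did not overlap, and the difference was -1.23 (SE 0.31, adjusted p = 0.00972); replicates 1 and 2 alone gave -1.18 and replicates 3 and 4 alone -1.29. A dimmer Nkd1 probe differed by -0.16 and was not called. Its relative Nkd2 stood at 9.17, 9.01, 9.57 and 9.56 in cHet uterus and at 8.41, 8.38, 8.49 and 8.46 in cHet vagina. All 4 vaginal pools lay below all 4 uterine pools, and the difference was -0.89 (SE 0.14, adjusted p = 0.000210).

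Apcdd1, a membrane-bound inhibitor of Wnt signalling and a target of it, stood at 9.20, 8.99, 9.36 and 9.74 in cHet uterus. In cHet vagina it stood at 7.63, 7.56, 8.34 and 8.49, below every uterus pool. The difference was -1.32 (SE 0.23, adjusted p = 0.000552); replicates 1 and 2 alone gave -1.5 and replicates 3 and 4 alone -1.14. The other Apcdd1 probes were called as well, with differences of -1.77 and -1.57.

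**Figure D1:**
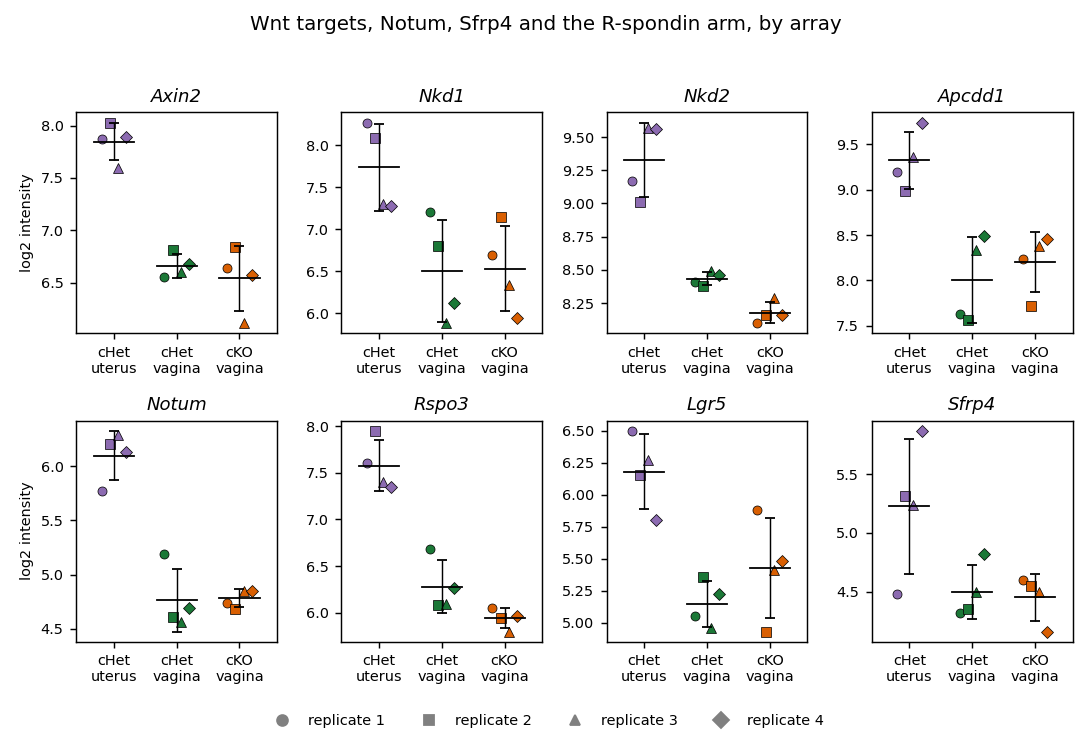
Log2 intensity of 8 Wnt pathway genes on each array, with cHet uterus, cHet vagina and cKO vagina on the horizontal axis. Points are pools (n = 4 per group, marked by replicate), horizontal lines are means and bars are 1 SD; in all genes except Sfrp4 and, for cKO vagina, Lgr5 the uterus pools lie above every vaginal pool, and the vertical axes differ between panels and do not start at 0.

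Of the 3 tested genes of the R-spondin arm, 2 were called as lower in vagina, against 9.06% of all genes. Rspo3, a secreted amplifier of Wnt signalling, stood at 7.60, 7.95, 7.40 and 7.35 in cHet uterus and at 6.68, 6.08, 6.09 and 6.27 in cHet vagina. The groups did not overlap, and the difference was -1.29 (SE 0.16, adjusted p = 2.49e-05), or 2.45-fold. A dimmer Rspo3 probe differed by -0.56 (adjusted p = 0.0548 over all probes) and was not called. Lgr5, an R-spondin receptor known as a Wnt target and stem cell marker in the intestine, stood at 6.50, 6.15, 6.27 and 5.80 in cHet uterus and at 5.05, 5.36, 4.96 and 5.22 in cHet vagina. All 4 vaginal pools lay below all 4 uterine pools, and the difference was -1.03 (SE 0.19, adjusted p = 0.000952). Rspo1 had -0.39 (SE 0.16, adjusted p = 0.116) and was above background in 3 of 4 uterus pools and 1 of 4 cHet vagina pools. It was called without cHet uterus replicate 2 or cHet vagina replicate 1. Rspo2, Rspo4, Lgr4, Lgr6, Znrf3 and Rnf43 were above background on at most 3 arrays and were not tested.

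Among secreted inhibitors, Notum and Sfrp4 were lower in vagina and Dkk3 was higher. Notum, an enzyme that removes the lipid from Wnt ligands and is induced by Wnt signalling, stood at 5.77, 6.21, 6.29 and 6.13 in cHet uterus. In cHet vagina it stood at 5.19, 4.61, 4.56 and 4.69, with replicate 1 the highest and still below every uterus pool. The difference was -1.34 (SE 0.16, adjusted p = 1.15e-05), or 2.52-fold. A dimmer probe was above background in all 4 uterus pools and in no vaginal pool, and since it passed the filter through the uterus pools alone, its difference is no separate test. With an offset of 50 the Notum difference was -0.74, and without background correction it was -0.55. It stayed called in both settings (adjusted p = 6.66e-05 and 0.000115).

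Sfrp4, a secreted Frizzled-related protein, stood at 4.48, 5.31, 5.24 and 5.87 in cHet uterus and at 4.32, 4.35, 4.50 and 4.82 in cHet vagina. The groups overlapped, with uterus replicate 1 inside the vaginal range. The difference was -0.72 (SE 0.23, adjusted p = 0.0341). It was not called without cHet uterus replicate 2, 3 or 4 or cHet vagina replicate 1, 2 or 3, nor under 6 other settings, with adjusted p-values between 0.00161 and 0.221 across the 24 alternatives.

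Dkk3, a member of the Dickkopf family that differs from the others in its action on Wnt signalling, stood at 8.58, 8.61, 8.73 and 8.90 in cHet uterus. It stood at 10.03, 9.76, 10.17 and 10.40 in cHet vagina and at 9.59, 9.48, 10.08 and 10.10 in cKO vagina. The uterus pools lay below all vaginal pools. The difference between cHet vagina and cHet uterus was 1.39 (SE 0.17, adjusted p = 2.09e-05), or 2.61-fold, the largest among the tested members. A further Dkk3 probe had 1.31 and was called. Sfrp1, Sfrp2, Frzb and Wif1 had differences of -0.12 to 0.24 and were not called (adjusted p = 0.262 to 0.837).

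The ligands split into those lower in vagina and those higher. Wnt4 stood at 7.49, 7.20, 7.24 and 7.23 in cHet uterus and at 6.16, 6.75, 5.64 and 6.11 in cHet vagina. Its groups did not overlap, and the difference was -1.12 (SE 0.19, adjusted p = 0.000420). A dimmer Wnt4 probe was called with -0.72. Wnt5a, the main ligand of the non-canonical branch, stood at 10.25, 10.10, 10.24 and 10.13 in cHet uterus and at 9.05, 8.74, 9.71 and 9.49 in cHet vagina. The uterus pools lay close together above all vaginal pools, and the difference was -0.93 (SE 0.23, adjusted p = 0.00829); replicates 1 and 2 alone gave -1.28 and replicates 3 and 4 alone -0.58. The dimmer Wnt5a probes differed by -0.65 and -0.38 and were not called, and with the mean of the 3 probes Wnt5a was not called (adjusted p = 0.0705).

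Wnt5b, a close relative of Wnt5a, stood at 7.02, 6.50, 6.21 and 6.64 in cHet uterus and at 5.86, 5.20, 5.37 and 5.88 in cHet vagina. The groups did not overlap, and the difference was -1.02 (SE 0.20, adjusted p = 0.00148). Wnt6, an epithelial ligand, stood at 6.12, 6.75, 6.67 and 6.42 in cHet uterus and at 5.79, 5.10, 5.98 and 5.58 in cHet vagina. It did not overlap either, with a difference of -0.88 (SE 0.20, adjusted p = 0.00403), and its second probe was called with -0.91.

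Wnt7b, Wnt10a and Wnt16, ligands known from epidermis and other stratified or branching epithelia, were higher in vagina. Wnt7b stood at 4.72, 4.94, 5.63 and 5.13 in cHet uterus, at 6.41, 6.42, 6.52 and 6.33 in cHet vagina and at 5.84, 6.03, 6.60 and 6.29 in cKO vagina. No uterus pool reached a vaginal pool, and the difference between cHet vagina and cHet uterus was 1.32 (SE 0.19, adjusted p = 9.89e-05), or 2.49-fold. Without background correction this difference was 0.61 (adjusted p = 0.000651). A dimmer Wnt7b probe, above background in no uterus pool, was not called (adjusted p = 0.566 over all probes).

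Wnt10a stood at 4.39, 4.40, 4.30 and 4.53 in cHet uterus, where 1 of 4 pools was above background. In cHet vagina it stood at 5.74, 4.97, 5.14 and 4.92, with replicate 1 the highest, and the difference was 0.79 (SE 0.16, adjusted p = 0.00213). Wnt16 stood at 4.19, 4.36, 4.21 and 4.39 in cHet uterus, above background in no pool, and at 5.29, 4.87, 4.59 and 4.70 in cHet vagina, above background in all 4. The vaginal level was at least 1.29-fold higher, the bound being set against the lowest signal above background on each uterus array (adjusted p = 0.0181). Wnt16 passed the filter through the vaginal pools alone. It was no longer called without cHet vagina replicate 1, without background correction, with an offset of 50, with the mean of probes or in replicates 3 and 4 alone, and the 24 alternatives gave adjusted p-values between 0.00712 and 0.160. Its other probes were not called (adjusted p = 0.199 and 0.224 over all probes). Wnt7a, in contrast, stood at 7.60, 7.62, 7.92 and 7.47 in cHet uterus and at 7.59, 7.95, 7.60 and 7.05 in cHet vagina. These ranges overlapped, and the difference of -0.11 (SE 0.21, adjusted p = 0.804) was not called.

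**Figure D2:**
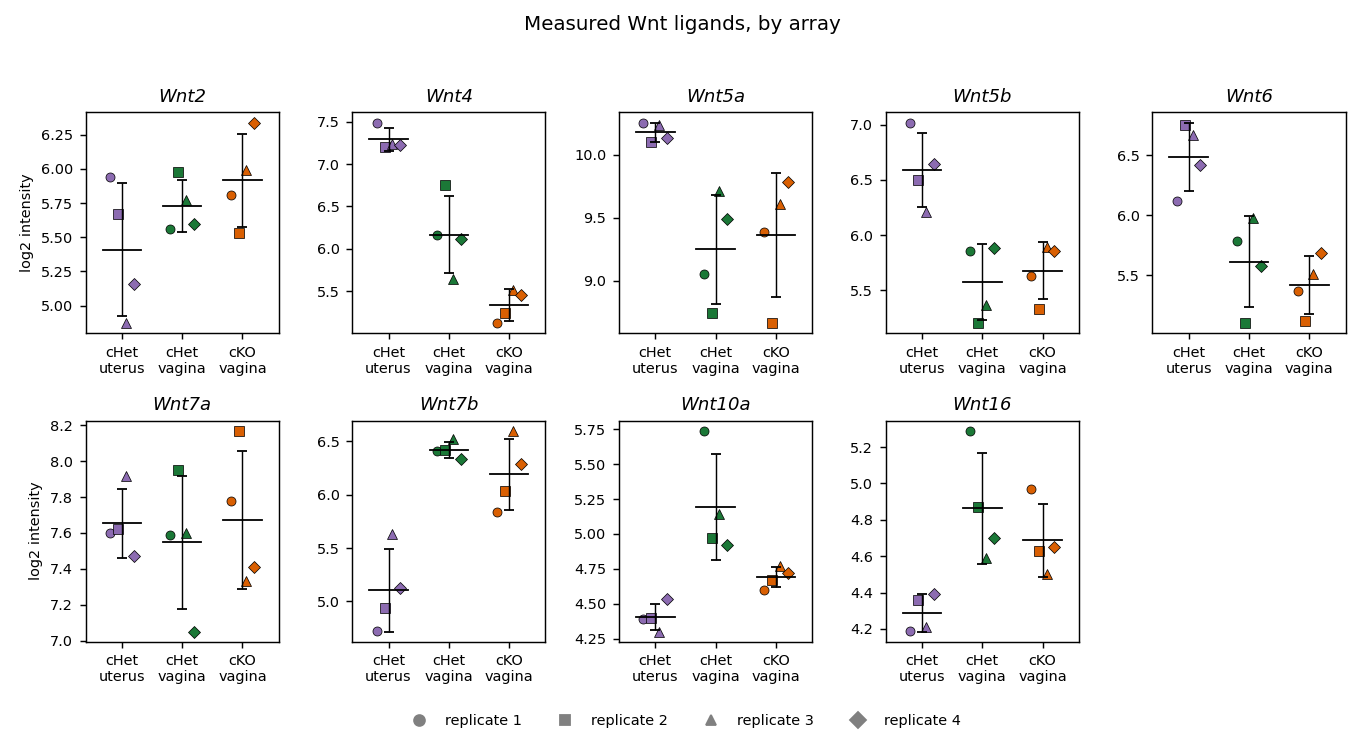
Log2 intensity of the 9 tested Wnt ligands on each array, by group. Points are pools (n = 4 per group, marked by replicate), lines are means and bars are 1 SD; Wnt4, Wnt5a, Wnt5b and Wnt6 are highest in uterus, Wnt7b, Wnt10a and Wnt16 are lowest in uterus, and Wnt2 and Wnt7a overlap between all groups. The vertical axes differ between panels and do not start at 0.

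The sequences before the start sites of 4 of these members are shown to place the measured genes. Capitals mark CTTTG, a shortened form of the CTTTGA core bound by Tcf and Lef factors, so a stretch in capitals need not be that core. They are RefSeq windows of build GRCm38.p6, from 250 bases before to 50 bases after the annotated start, written 5′ to 3′ on the gene's strand. Of the 60 listed members 41 had such a window. The search was for CTTTG on either strand, a shorter form of CTTTGA and so always found within it, and capitals mark each match. Axin2 (chr11:108920099-108920398, + strand) and Wnt4 (chr4:137277385-137277684, + strand) were lower in vagina, as was Wnt5b (chr6:119449337-119449636, - strand, 1 of its 3 windows). Wif1 (chr10:121033754-121034053, + strand) was the member called between the vaginal groups, as described further on.
Axin2: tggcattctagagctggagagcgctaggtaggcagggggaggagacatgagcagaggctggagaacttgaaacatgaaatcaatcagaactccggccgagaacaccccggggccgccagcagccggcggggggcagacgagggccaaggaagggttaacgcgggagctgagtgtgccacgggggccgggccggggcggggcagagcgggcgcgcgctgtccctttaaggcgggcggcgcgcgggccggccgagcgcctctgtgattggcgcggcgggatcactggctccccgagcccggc
Wnt4: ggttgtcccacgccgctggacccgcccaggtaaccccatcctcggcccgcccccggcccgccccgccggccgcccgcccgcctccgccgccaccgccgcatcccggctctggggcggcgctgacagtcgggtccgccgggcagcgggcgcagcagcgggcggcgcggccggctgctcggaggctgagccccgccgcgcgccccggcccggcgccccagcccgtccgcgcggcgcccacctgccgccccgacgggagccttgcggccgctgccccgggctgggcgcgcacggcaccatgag
Wnt5b: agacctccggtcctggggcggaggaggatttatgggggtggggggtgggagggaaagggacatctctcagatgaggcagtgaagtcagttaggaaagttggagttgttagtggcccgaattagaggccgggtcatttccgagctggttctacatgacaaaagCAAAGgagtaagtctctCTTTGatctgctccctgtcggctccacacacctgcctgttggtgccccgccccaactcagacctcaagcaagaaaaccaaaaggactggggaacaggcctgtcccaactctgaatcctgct
Wif1: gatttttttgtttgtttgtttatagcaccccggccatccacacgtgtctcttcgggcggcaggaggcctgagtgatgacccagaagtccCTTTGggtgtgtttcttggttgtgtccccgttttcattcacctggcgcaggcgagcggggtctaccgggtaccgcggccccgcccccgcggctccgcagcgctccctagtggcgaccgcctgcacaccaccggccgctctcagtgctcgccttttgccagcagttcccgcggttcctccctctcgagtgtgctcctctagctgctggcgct
CTTTG was in 53.9% of all 32851 windows in the table and CTTTGA in 16%. Of the 21 members called in any comparison 9 had a window, 11 windows in all, of which 3 held CTTTG and 1, that of Wnt5b shown here, held CTTTGA. The Axin2 and Wnt4 windows held neither. No match says only that these letters are not in the window.

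Of the receptors, 2 of the 11 tested were called, both higher in vagina, a share of 18.2% that is close to the 18.4% of all genes. Fzd3, a Frizzled receptor known for planar cell polarity, stood at 5.33, 5.70, 5.44 and 5.14 in cHet uterus and at 6.18, 6.15, 6.30 and 6.13 in cHet vagina. The groups did not overlap, and the difference was 0.79 (SE 0.17, adjusted p = 0.00320), with further probes called at 0.53 and 0.55. Fzd6, its close relative in planar polarity of skin, stood at 6.85, 6.81, 6.80 and 6.95 in cHet uterus and at 7.58, 7.36, 7.78 and 7.61 in cHet vagina. It did not overlap either, with a difference of 0.73 (SE 0.13, adjusted p = 0.000660), and its second probe was called with 0.72. In replicates 1 and 2 alone neither Fzd3 nor Fzd6 was called (adjusted p = 0.116 and 0.0900).

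Fzd1 stood at 7.10, 7.24, 7.52 and 7.76 in cHet uterus and at 6.18, 6.24, 7.24 and 7.17 in cHet vagina. In both organs replicates 3 and 4 were higher than replicates 1 and 2, and the groups overlapped. Its difference of -0.69 (SE 0.24, adjusted p = 0.0575) was not called, and with the replicate number as a block it was (adjusted p = 0.00247). It was also called without cHet uterus replicate 1 or cHet vagina replicate 3 or 4. Fzd2, with -0.45 (adjusted p = 0.0774), was called only when cHet uterus replicate 3 was left out. Fzd4, Fzd5, Fzd7, Fzd10, Lrp5, Lrp6 and Ror2 ran from -0.23 to 0.40 and were not called.

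The intracellular core did not pass the test. Ctnnb1, which encodes β-catenin, stood at 11.49, 11.44, 11.92 and 11.77 in cHet uterus and at 11.87, 11.66, 12.02 and 11.96 in cHet vagina. The ranges overlapped, and the difference was 0.22 (SE 0.16, 95% interval -0.12 to 0.56, adjusted p = 0.407). Axin1, Tcf7l1 and Tcf7l2 had differences of 0.06, 0.11 and 0.20, with adjusted p of 0.576 to 0.912. Lef1 had 4 probes, none above background on more than 3 arrays, and was not tested. The other untested members, besides those of the R-spondin arm, were 9 ligands (Wnt1, Wnt2b, Wnt3, Wnt3a, Wnt8b, Wnt9a, Wnt9b, Wnt10b and Wnt11), Fzd8, Fzd9, Sfrp5, Dkk1 and Dkk2. Of these, Fzd8, Sfrp5 and Dkk1 were above background on 2 arrays each and Wnt1 and Dkk2 on 1, and the others on 0. A level under the filter does not show that a transcript is absent.

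**Figure D3:**
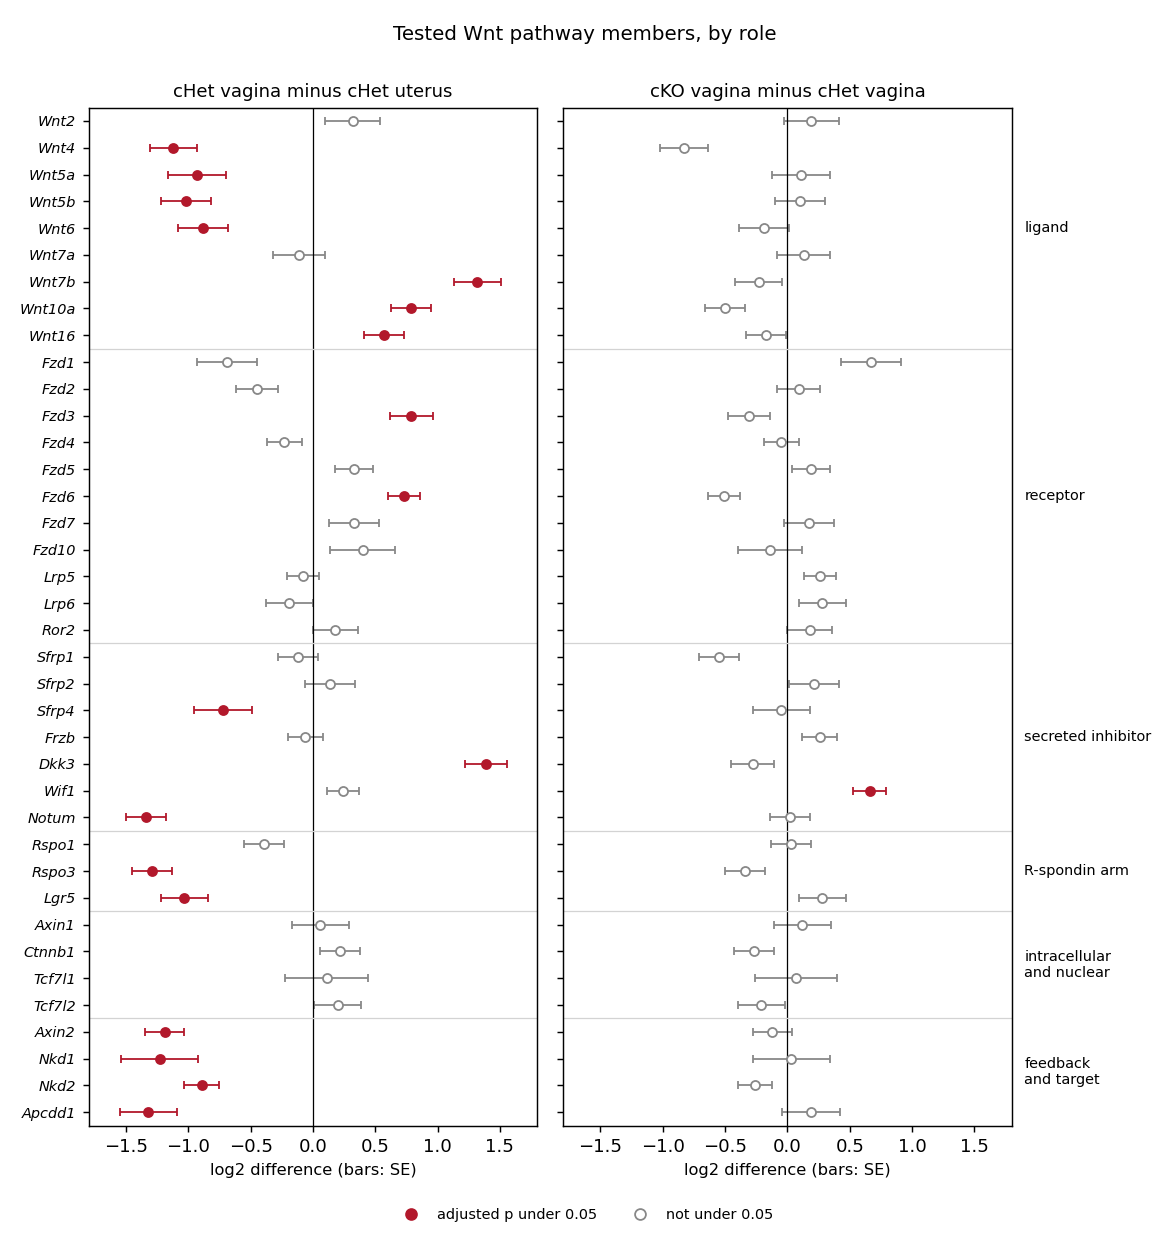
Log2 difference of the 38 tested members between cHet vagina and cHet uterus (left) and between cKO and cHet vagina (right), ordered by role, with bars of 1 SE. Filled red points have an adjusted p under 0.05; there are 18 on the left, among them all 4 feedback and target genes below 0, and 1 on the right, Wif1.

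Markers of several cell types differed between the organs together with these genes. The counts below stand beside 9.34% of all genes called as higher and 9.06% called as lower in cHet vagina. Of the 9 simple epithelium markers 8 were higher in vagina, and their summed intensity ran from 3620 to 4400 in cHet uterus and from 8170 to 12600 in cHet vagina. All 5 basal epithelium markers, Trp63 among them, were higher, with sums of 150 to 299 and of 2800 to 6500. Krt5, counted among the 5, passed the filter through the vaginal pools alone, so its call is a description. Both tested mesothelium markers (of 4 listed) were lower in vagina, with sums of 663 to 1160 in uterus and 30.2 to 96.6 in cHet vagina. Of the 4 tested endothelium markers (of 5 listed) 3 were lower, with sums of 1160 to 1330 and of 516 to 754. All 3 tested leukocyte markers (of 6 listed) were lower, with sums of 207 to 416 and of 140 to 163, and the defining marker Ptprc was above background on 0 arrays. Of the urothelium markers 3 of 4 were higher and 1 lower, with sums of 219 to 361 and of 626 to 945. Upk3a, counted among the 3 higher, also passed the filter through the vaginal pools alone. Of the 5 tested smooth muscle markers (of 6 listed) 2 were higher and 1 lower, with sums of 19100 to 24400 and of 19800 to 31800. Of the stroma markers 1 of 7 was called, higher in vagina, with sums of 12100 to 14400 and of 14400 to 20300. Of the 2 tested red blood cell markers (of 5 listed) 1, Hba-a1, was lower, with sums of 14600 to 20700 and of 7680 to 10300. The single tested Schwann cell marker (of 4 listed), Sox10, was above background in no uterus pool and in all 4 cHet vagina pools, with sums of 1.05 to 2.77 and of 10.9 to 24.1. Sox10 too passed the filter through the vaginal pools alone. The part of these cell types in the differences of the Wnt genes was not tested.

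Setting cKO against cHet vagina asked how the pathway in the vagina differs where both Trp63 copies are floxed. Wif1, a secreted protein that binds Wnt ligands, was the only 1 of 38 tested members called (2.63%), against 0.381% of all genes called in either direction, 0.0532% as higher and 0.328% as lower. It stood at 4.75, 4.50, 4.79 and 4.50 in cHet vagina and at 5.19, 5.33, 5.32 and 5.33 in cKO vagina. All 4 cKO pools lay above all 4 cHet pools and close to each other. The difference was 0.66 (SE 0.13, adjusted p = 0.0372), or 1.58-fold; replicates 1 and 2 alone gave 0.64 and replicates 3 and 4 alone 0.68. In cHet uterus it stood at 4.37, 4.30, 4.66 and 4.25, above background in 1 of 4 pools.

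The Wif1 call was close to the threshold. It was lost without cHet uterus replicate 1 or 4, cHet vagina replicate 1, 2 or 4, or any of the 4 cKO vagina replicates, and over the 12 arrays left out in turn its adjusted p ran from 0.0400 to 0.118. Without background correction its difference was 0.22 (adjusted p = 0.111), which was not called. The genes most like Wif1 in pattern were Cbs, Grin2b and Bex4, with Pearson correlations of 0.912, 0.899 and 0.898 over the 12 arrays. These correlations include the differences between the groups and are a description.

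Wnt4 had the largest difference among the members between the vaginal groups, and it was not called. It stood at 6.16, 6.75, 5.64 and 6.11 in cHet vagina and at 5.12, 5.24, 5.52 and 5.46 in cKO vagina, so that all 4 cKO pools lay below all 4 cHet pools. The difference was -0.83 (SE 0.19, 95% interval -1.24 to -0.43, adjusted p = 0.0832); replicates 1 and 2 alone gave -1.28 and replicates 3 and 4 alone -0.39. Its second probe stood at 5.80, 5.29, 4.87 and 5.64 in cHet vagina and at 4.31, 4.65, 4.77 and 4.61 in cKO vagina. These ranges did not overlap either, with a difference of -0.81 (SE 0.18, adjusted p = 0.0925 over all probes). Wnt4 was called without cHet vagina replicate 3 (adjusted p = 0.0209), with the mean of its probes, in replicates 1 and 2 alone (adjusted p = 0.0314) and with the 2 replicate sets as a block (adjusted p = 0.0423).

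Further members had separate ranges without passing the test. The groups did not overlap in 7 of the 38 tested members, namely Wif1, Wnt4, Fzd6, Sfrp1, Wnt10a, Rspo3 and Nkd2, or 18.4%, against 4.34% of all genes. Fzd6 stood at 7.58, 7.36, 7.78 and 7.61 in cHet vagina and at 7.24, 6.90, 7.15 and 7.0 in cKO vagina, a difference of -0.51 (SE 0.13, adjusted p = 0.143), and its second probe had -0.55. The cKO vagina mean of 7.07 lay between those of cHet vagina, 7.58, and cHet uterus, 6.85. Sfrp1, a secreted Frizzled-related inhibitor, stood at 9.97, 9.79, 9.41 and 9.86 in cHet vagina and at 9.32, 9.26, 9.07 and 9.17 in cKO vagina. Its difference was -0.55 (SE 0.16, adjusted p = 0.237), with -0.54 for its second probe. That probe stood at 8.07, 8.05, 7.87 and 7.77 in cHet vagina and at 8.10, 7.86, 6.83 and 6.81 in cKO vagina, so its ranges overlapped, with cKO replicate 1 above every cHet pool.

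Wnt10a stood at 5.74, 4.97, 5.14 and 4.92 in cHet vagina and at 4.60, 4.67, 4.77 and 4.72 in cKO vagina, a difference of -0.50 (SE 0.16, adjusted p = 0.347). Rspo3 had 6.05, 5.95, 5.80 and 5.97 in cKO vagina and a difference of -0.34 (SE 0.16, adjusted p = 0.740). A dimmer Rspo3 probe differed by only -0.13 (adjusted p = 0.959 over all probes), and its ranges overlapped. Nkd2 had 8.10, 8.16, 8.29 and 8.16 in cKO vagina and a difference of -0.26 (SE 0.14, adjusted p = 0.794). By the probe that stood for its gene, each of these 3 genes lay below every cHet vagina pool, with differences no larger than 0.50 in size.

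Fzd1 differed in the other direction. It stood at 6.18, 6.24, 7.24 and 7.17 in cHet vagina and at 7.21, 7.07, 7.63 and 7.60 in cKO vagina, where replicates 1 and 2 of cKO overlapped replicates 3 and 4 of cHet. Its difference was 0.67 (SE 0.24, adjusted p = 0.471), and with the 2 replicate sets as a block it was called (adjusted p = 0.0239). The difference was 0.93 in replicates 1 and 2 and 0.41 in replicates 3 and 4.

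**Figure D4:**
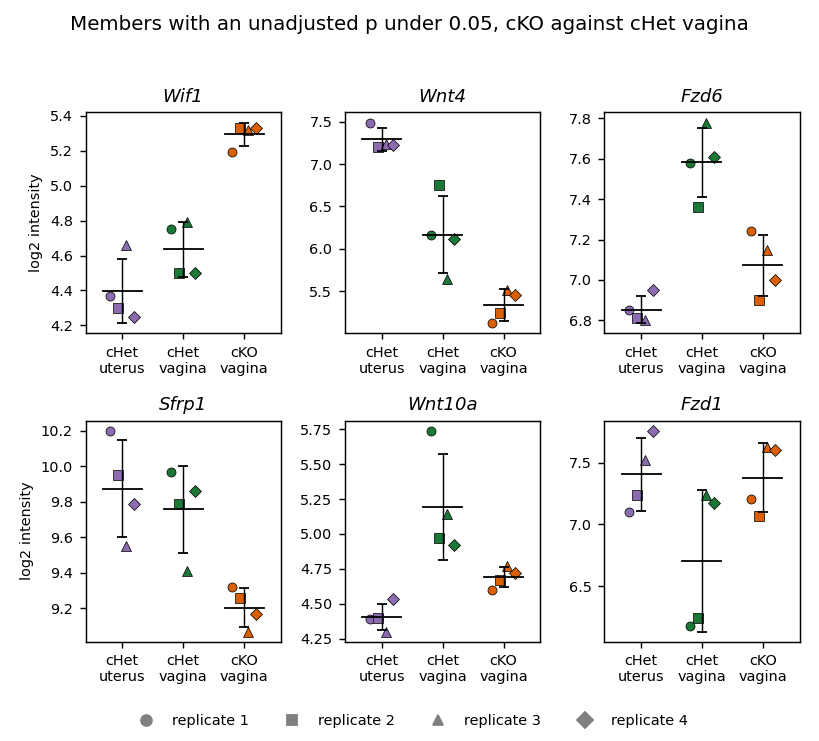
Log2 intensity on each array, by group, of the 6 tested members with an unadjusted p under 0.05 between cKO and cHet vagina. Points are pools (n = 4 per group, marked by replicate), lines are means and bars are 1 SD; cKO pools lie above all cHet vagina pools for Wif1 and below them for Wnt4, Fzd6, Sfrp1 and Wnt10a, and the Fzd1 ranges overlap. The vertical axes differ between panels and do not start at 0.

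Of the 4 feedback and target genes, limma called 0 between the vaginal groups, against 0.381% of all genes. An unadjusted p under 0.05 was found for 0 of them, against 7.07% of all genes. With shares this low, 0 of 4 says little about these genes. Nkd2 is given above. Axin2 had -0.12 (95% interval -0.45 to 0.22, adjusted p = 0.944), Apcdd1 0.19 (-0.30 to 0.68, adjusted p = 0.931), and Nkd1 0.03 (-0.63 to 0.69, adjusted p = 0.993). The secreted inhibitor Notum had 0.02 (-0.32 to 0.35, adjusted p = 0.993). Each of these 4 intervals, for the probe that stood for its gene, lies within 1 of 0 on the log2 scale. The other Apcdd1 probes differed by 0.52 (SE 0.32) and -0.15 (SE 0.23) and were not called (adjusted p = 0.868 and 0.963 over all probes). Notum was dim in both vaginal groups (means 4.76 and 4.78), so its interval does not bound the fold change of its RNA. Dkk3 and Wnt7b, the members with the largest positive differences between the organs, had -0.28 (-0.65 to 0.09, adjusted p = 0.833) and -0.23 (-0.64 to 0.18, adjusted p = 0.892). Lgr5 stood at 5.88, 4.93, 5.41 and 5.48 in cKO vagina, with a difference of 0.28 (-0.13 to 0.68, adjusted p = 0.860). Wnt5a stood at 9.39, 8.66, 9.61 and 9.78 in cKO vagina, with 0.11 (-0.38 to 0.60, adjusted p = 0.970). Wnt7a stood at 7.78, 8.17, 7.33 and 7.41, with 0.13 (-0.31 to 0.57, adjusted p = 0.959). Ctnnb1 stood at 11.40, 11.38, 11.93 and 11.71, with -0.27 (-0.61 to 0.07, adjusted p = 0.823). None of these was called, and their cKO and cHet vagina ranges overlapped.

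Over the 38 tested members the median difference between cKO and cHet vagina was 0.03, and over all genes it was -0.01. Of the 5 basal epithelium markers 1, the collagen gene Col17a1, was called as lower in cKO vagina. All 5 differences were below 0, and 4 had an unadjusted p under 0.05 by limma. Of these, Krt14 and Krt5 differed by -2.15 and -1.12 with overlapping ranges and were not called (adjusted p = 0.140 and 0.188). The summed intensity of the basal list ran from 904 to 2470 against 2800 to 6500 in cHet vagina. Upk2, 1 of 4 urothelium markers, was lower as well, with sums of 246 to 541 against 626 to 945. By limma 0 of the 9 simple epithelium and 0 of the 7 stroma markers were called, against 0.381% of all genes. An unadjusted p under 0.05 was found for 2 and 0 of them, against 7.07% of all genes. Epcam, a simple epithelium marker, was 0.72 higher in cKO vagina with separate ranges. Of that list 3 differences were above 0 and 6 below. The sum of the skeletal muscle list (6 of 8 genes tested) ran from 49.3 to 967 in cKO vagina and from 49.1 to 432 in cHet vagina, and that of the red blood cell list (2 of 5 tested) from 9700 to 29700 and from 7680 to 10300. Both lists were highest in cKO vagina replicate 3, and without it the Wif1 difference was 0.65 (adjusted p = 0.100). The part of these cell types in the differences of Wif1 and Wnt4 was not tested.

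In the comparison of cKO vagina with cHet uterus, which shares samples with each of the others, 13 of the 38 tested members were lower and 4 higher, or 44.7%, against 18.2% of all genes, 9.35% as lower and 8.84% as higher. Wnt4 had the largest difference, from 7.29 ± 0.14 to 5.33 ± 0.19 (log2, SD, n = 4 each), or -1.95 (SE 0.19, adjusted p = 2.03e-06), with -1.09 without background correction. Rspo3 had -1.63, Notum -1.32, Axin2 -1.31, Nkd1 -1.20, Nkd2 -1.15 and Apcdd1 -1.12, all called (adjusted p = 2.77e-06 to 0.0119). With no filter on dim probes Nkd1 was not called (adjusted p = 0.0539). Sfrp1 was called as lower with -0.67 (SE 0.16, adjusted p = 0.00667). Wif1 was called as higher with 0.90 (SE 0.13, adjusted p = 0.000119), as were Dkk3 with 1.11 and Wnt7b with 1.09. Fzd5, a Frizzled receptor of epithelia, was also called as higher with 0.51 (SE 0.15, adjusted p = 0.0283), and it was lost without cHet uterus replicate 1, 3 or 4 or cKO vagina replicate 2, 3 or 4. Wnt5a, with -0.82 (adjusted p = 0.0187), was lost without cKO vagina replicate 2 (adjusted p = 0.0587), with no filter on dim probes (0.0593), with the mean of probes (0.0522) and in replicates 3 and 4 alone (0.0536). Lgr5, Sfrp1 and Wnt5b were also lost in replicates 3 and 4 alone (adjusted p = 0.0569, 0.0675 and 0.101). Sfrp4, with -0.77 (adjusted p = 0.0244), was lost without cHet uterus replicate 2, 3 or 4 or cKO vagina replicate 4 and under 5 other settings. The differences without background correction were smaller for Notum (-0.55), Rspo3 (-1.03), Wif1 (0.29) and Wnt7b (0.48), and each stayed called.

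Without quantile normalization 10 members were higher and 11 lower in this comparison, or 47.6% higher among those called against 23.5% in the main analysis. That setting moved the median of all genes from -0.02 to 0.17. It added Fzd3, Fzd6, Fzd7, Ror2, Wnt2 and Wnt16 as higher, with differences of 0.22 to 0.50 in the main analysis, and Lgr5 and Sfrp4 were no longer called.

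Other genes of the pathway, from a list of 71, were examined in the same fit. Of the 53 that were tested, 11 were higher and 9 lower in cHet vagina than in cHet uterus, or 37.7% against 18.4% of all genes. Sp5, counted among the 9 lower, passed the filter through the uterus pools alone. Between the vaginal groups limma called 0, against 0.381% of all genes. There 4 had an unadjusted p under 0.05, or 7.55%, against 7.07% of all genes. Porcn, the acyltransferase that adds the lipid to Wnt ligands, was higher in vagina by 1.12 (SE 0.14, adjusted p = 2.22e-05). Of the planar cell polarity genes, the adhesion receptor genes Celsr1 and Celsr2 were higher by 1.18 and 1.51 (adjusted p = 3.00e-05 and 0.000208), and Prickle1, a cytoplasmic component, was lower, with -1.36 (adjusted p = 3.29e-06). Cthrc1, which encodes a secreted matrix protein, was higher by 1.85 (adjusted p = 1.51e-06) and Serpinf1, a secreted serpin, by 0.89 (adjusted p = 0.00115), while the glypican gene Gpc3 had -0.80 (adjusted p = 0.000470) and was lower. In cKO vagina against cHet uterus 9 of the 53 were higher and 9 lower, or 34.0% against 18.2% of all genes. Sp5 was again counted among the lower.

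Among 8 tested genes often used as Wnt targets, 3 had an adjusted p under 0.05 as lower in cHet vagina than in cHet uterus and 3 as higher. Of all genes 9.06% were called as lower and 9.34% as higher. The lower were Jun, Nrcam and Sp5, and the higher were Ccnd1, Cd44 and Enc1. Myc and Tnfrsf19 differed by 0.02 and -0.13 and were not called. Cd44, a hyaluronan receptor gene, was higher by 1.78 (SE 0.13, adjusted p = 8.61e-08). Jun, which encodes a subunit of the AP-1 factor, was lower, with -0.96 (SE 0.15, adjusted p = 0.000151). Sp5, a transcription factor gene induced by canonical signalling, was above background in all 4 uterus pools and in no vaginal pool of either genotype. Its level was at least 1.53-fold lower in cHet vagina, given as a description, since the gene passed the filter through the uterus pools alone. Of 11 nuclear cofactors 3 were called, or 27.3%, against 18.4% of all genes. The corepressor gene Tle4 was higher by 1.42 (adjusted p = 4.06e-06), and Hhex and the corepressor gene Tle1 were lower, with -0.74 and -0.54 (adjusted p = 0.000649 and 0.0490). Of 13 cytoplasmic components 2 were called, or 15.4%, which is below the 18.4% of all genes. Dact2, a Dishevelled-binding modulator, was higher by 1.17 and Amer1, a regulator of β-catenin destruction, was lower, with -0.61 (adjusted p = 0.000993 and 0.00259).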

How the data were processed

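RNA from 12 pools was measured on Illumina mouse bead arrays. The authors deposited 1 linear intensity per probe and array in the series table, with no scale stated, and array means of 248.25 to 252.224 over 45281 probes. A second deposited table was not used here, since the names of its 24 columns of per-sample values match no sample's labels.

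Each array's background was taken from the mode of its intensities (68.7 to 90.6) and the spread below it. The intensities were corrected by normexp (offset 16), then quantile normalized, and log2 values of the deposited intensities were taken, with limma 3.58.1 in R 4.3.3. Probes above the 99% background level on at least 4 of 12 arrays were kept (21018), and the brightest on average stood for its gene. Of all probes 34885 had 1 gene symbol, 18 several and 10378 none in the platform annotation. Group means over all 12 arrays were fitted with lmFit and eBayes, and p-values were adjusted by Benjamini-Hochberg over 11273 genes. Other probes of a gene were tested over all kept probes. The fit alone was run on simulated log2 values with independent noise and known changes. Background correction, normalization, the filter and the split of the replicate sets were not part of that run. The planned design allowed for deposited detection p-values, which were not matched to samples, so the intensities' own background was used.

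Same-numbered pools of cHet vagina and cHet uterus deviated together (r = 0.117 to 0.429). Pools of different number were not compared, and all groups shared the split into replicate sets. Pairing by number can therefore not be told apart from that split. The main fit held no block, so its p-values leave out any pairing, and blocks entered only as alternatives. For cKO against cHet vagina (0.0659 to 0.490) and cKO vagina against uterus (0.0729 to 0.309) 1 pair each was under 0.1. The alternatives were other background, normalization, filter and probe settings, blocks, each set of replicates alone, and each pool left out.

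Values on every array are given for members called between the vaginal groups, the 8 called members with the largest difference in each direction between the organs, the member with the smallest p in each role, and Axin2, Lef1, Ctnnb1, Wnt4, Wnt5a and Wnt7a where measured; of other pathway genes, up to 3 called per list. Further values by array are given for members chosen after their values were seen. The remaining genes often used as Wnt targets were named after their values were seen as well. The members and lists were chosen with earlier results of these data known.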

Additional observations from a re-analysis of the deposited data

Results flagged for a closer look

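In 6 of the 114 sets of 4 pools (38 members in 3 groups), 1 pool lay far from the others by Dixon's criterion, and chance gives about 1 in 20. Wif1 was 5.19 in cKO vagina replicate 1, below the 5.32 to 5.33 of the other pools. Wnt4 was 7.49 in cHet uterus replicate 1, above the other pools at 7.20 to 7.24. Fzd2 was 5.37 in cHet uterus replicate 3, below 6.00 to 6.09 in the others. Frzb was 4.70 in cHet uterus replicate 4, above 4.16 to 4.24. Rspo1 was 4.29 in cHet uterus replicate 2, below 4.81 to 4.89, and 4.49 in cKO vagina replicate 2, above 4.30 to 4.33.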

How the results depend on the processing

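Over 24 alternatives the called members kept their sign in every comparison. Of the 18 called between cHet vagina and cHet uterus 13 were called in every alternative, as were 10 of the 17 called between cKO vagina and cHet uterus and 0 of 1 between the vaginal groups. Between the vaginal groups 0 members were higher without background correction, with an offset of 50, in replicates 1 and 2 alone, in replicates 3 and 4 alone and with only the 2 groups compared, and 2 were higher when the replicate sets entered as a block. The number lower went from 0 to 1 with the mean of probes, with that block and in replicates 1 and 2 alone. With 1 pool left out, 0 to 1 were higher and 0 to 1 lower. Between cKO vagina and cHet uterus 4 higher became 10 without quantile normalization and 8 in replicates 3 and 4 alone, and 3 to 6 with 1 pool left out. With the replicate block the members called were 1 higher and 0 lower between the vaginal groups, 6 and 13 between cHet vagina and uterus, where Fzd1 was gained, and 5 and 13 between cKO vagina and uterus, where Fzd7 was gained, and no other call changed. The causes of these changes were not tested. Genes close to background, such as Wif1, Wnt10a and Wnt16, are limited in precision by their signal and by 4 pools a group.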
